A study of Homo sapiens with 24 samples.

Results

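The collagen genes were all rows of the deposited count table whose symbol is COL, digits, A and digits and nothing more. The table held 44 such rows among 35993. Of these, 31 reached 10 counts in at least 1 library and are described here. The other 13 rows stayed under 10 counts in every library and were left out (COL2A1, COL6A5, COL6A6, COL8A2, COL9A1, COL10A1, COL19A1, COL20A1, COL21A1, COL22A1, COL23A1, COL25A1 and COL26A1). RNA was sequenced from J82 and RT-112, both established human bladder cancer cell lines, and from cells of each labelled by CD44 or CD44v6. In each line there were 4 groups of 3 libraries described as biological replicates, 24 libraries in all. The groups were the parental cells (labelled control for CD44 and for CD44v6), cells labelled low in CD44 (CD44 Low), cells labelled high in CD44 (CD44 High) and cells labelled high in CD44v6 (CD44v6). CD44 is a cell-surface receptor for hyaluronan, and CD44v6 is a form of it that contains variant exon v6. How the labelled cells were obtained, and whether each group is 1 clone, is not given in the sources used here, and no treatment is named in the labels.

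Collagens are matrix proteins built from 3 chains wound into a triple helix, and each gene encodes 1 kind of chain. Fibrillar collagens (types I, III, V, XI, XXIV and XXVII) form the fibrils of connective tissue, and fibril-associated collagens (IX, XII, XIV and XVI) bind to their surface. Type IV chains form the network of basement membranes, the sheet on which an epithelium such as the urothelium rests. Type VI forms beaded filaments, type VII forms the anchoring fibrils that fasten a basement membrane to the matrix below it, and type XVII is a transmembrane collagen of the hemidesmosome. In the bladder wall, most fibrillar collagen is made by fibroblasts rather than by the urothelium.

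Library totals ran from 16752825 to 24419670 counts. Levels are given as CPM, counts scaled to the size of each library, after TMM normalization over the 24 libraries. The mean level of CD44 was 279 CPM in J82 CD44 Low, 445 in J82 parental, 727 in J82 CD44 High and 799.7 in J82 CD44v6, and 141, 317, 420.2 and 448 CPM in the same groups of RT-112. In RT-112, CD44 was not called in CD44 High or CD44v6 against parental (log2 differences of 0.41 ± 0.15 and 0.46 ± 0.15, SE, edgeR adjusted p = 0.272 and 0.163). Of 13 urothelial and epithelial markers, 7 reached 10 counts in J82, where KRT5, UPK2 and UPK3A were at 0 in every library, and 12 did so in RT-112, where UPK3A was at 0. Of 9 fibroblast and mesenchymal markers, 5 reached 10 counts in each line. DCN was at 0 in both lines, FAP was at 0 in J82, and PDGFRB and THY1 were at 0 in RT-112. Of those that reached 10 counts, VIM, CDH2 and PDGFRB were higher in J82, and LUM, ACTA2 and FAP in RT-112. Group means of VIM ran from 231 to 606 CPM in J82 and from 0.810 to 1.88 in RT-112. Those of LUM ran from 10.5 to 23.5 CPM in J82 and from 141 to 232 in RT-112. Of 3 endothelial markers, the summed level stayed at or below 4.19 CPM in every library. Of 3 leukocyte markers, only CD68, which is not confined to leukocytes, reached 10 counts in either line. A lower level in a bulk library can come from fewer cells with the transcript or from less of it per cell, and these cannot be told apart here.

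Several collagen genes lie head to head and share the stretch between their start sites, so their RNAs are read outward from the same DNA. The sequences below (RefSeq, GRCh38.p14) are shown because the results turn on how these neighbours compared, and because COL6A2, COL17A1 and COL7A1 differed strongly between the lines. The first 3 are on the plus strand, and the others run toward the start of the gene. Capitals mark matches on either strand to GGGCGG (the core of the GC box), CCAAT (the CCAAT box), TATAAA (the TATA box), TGACTCA (the AP-1 site) or CACCTG (an E-box), and no matches of different motifs overlapped.

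COL4A1 and COL4A2 (chr13:110307158-110307283, the whole 126 bases between the starts): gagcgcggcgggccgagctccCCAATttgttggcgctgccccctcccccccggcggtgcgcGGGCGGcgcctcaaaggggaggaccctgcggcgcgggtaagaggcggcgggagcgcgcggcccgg
COL4A4 and COL4A3 (chr2:227164489-227164623, the whole 135 bases between the starts): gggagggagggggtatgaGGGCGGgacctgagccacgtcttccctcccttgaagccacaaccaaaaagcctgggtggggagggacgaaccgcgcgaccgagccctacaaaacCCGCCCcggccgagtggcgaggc
COL4A6 and COL4A5 (chrX:108439588-108439837, the 250 of 379 bases nearest to COL4A5): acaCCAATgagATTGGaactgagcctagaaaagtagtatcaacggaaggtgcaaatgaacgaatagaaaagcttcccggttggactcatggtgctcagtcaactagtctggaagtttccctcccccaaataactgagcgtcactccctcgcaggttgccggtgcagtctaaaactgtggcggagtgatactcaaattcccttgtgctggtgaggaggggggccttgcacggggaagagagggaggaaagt
COL6A2 (chr21:46097986-46098111, plus strand): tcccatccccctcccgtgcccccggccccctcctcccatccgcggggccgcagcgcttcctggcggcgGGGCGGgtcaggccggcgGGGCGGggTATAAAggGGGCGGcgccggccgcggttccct
COL17A1 (chr10:104085881-104086006, minus strand): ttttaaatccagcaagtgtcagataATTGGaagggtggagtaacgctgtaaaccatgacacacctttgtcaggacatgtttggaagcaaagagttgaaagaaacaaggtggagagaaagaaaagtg
COL7A1 (chr3:48595330-48595455, minus strand): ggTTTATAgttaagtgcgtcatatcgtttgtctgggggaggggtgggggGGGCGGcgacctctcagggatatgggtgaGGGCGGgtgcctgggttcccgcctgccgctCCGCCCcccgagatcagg

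The COL4A1 and COL4A2 stretch was 80.2% G and C and held 1 GGGCGG and 1 CCAAT. That of COL4A4 and COL4A3 held 2 GGGCGG (68.1% G and C), and that of COL4A6 and COL4A5 held 2 CCAAT and no GGGCGG (51.2% G and C). COL6A2 and COL7A1 each held 3 GGGCGG and 1 TATAAA, and COL17A1 held 1 CCAAT (40.5% G and C). Among the 126 bases before the start of all 35116 RefSeq promoters, 34.6% held GGGCGG, 21.1% CCAAT, 5.87% TATAAA, 2.46% TGACTCA and 8.74% CACCTG. Over 135 bases GGGCGG was in 35.5% of promoters, and over 250 bases CCAAT was in 32.0%. A match describes the letters only.

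The lines differed in which collagens they transcribed far more than in how much. Summed over the 31 genes, the level was 2081 ± 72.0 CPM (SD, n = 3) in J82 parental, 3016 ± 375 in J82 CD44 Low, 2195 ± 111 in J82 CD44 High and 2463 ± 466 in J82 CD44v6. In RT-112 the same groups held 1415 ± 82.2, 1444 ± 44.1, 1613 ± 130 and 1588 ± 161 CPM. To compare genes with each other, CPM was divided by exon length, with 2 lengths: all exons of the gene in GENCODE 29, and its longest transcript. In J82 parental cells COL3A1 came first under both, at 84.7 CPM per kilobase of all exons and 104.1 per kilobase of the longest transcript, followed by COL5A2 at 44.3 and 46.7 and COL12A1 at 36.8 and 39.2. In RT-112 parental cells the order depended on the length used: COL12A1 led per kilobase of all exons (33.8, against 20.04 for COL4A1), and COL4A1 led per kilobase of the longest transcript (44.6, against 36.0 for COL12A1). COL4A2 reached 11.5 and 34.3 there, and COL17A1 15.1 and 18.8.

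**Figure D1:**
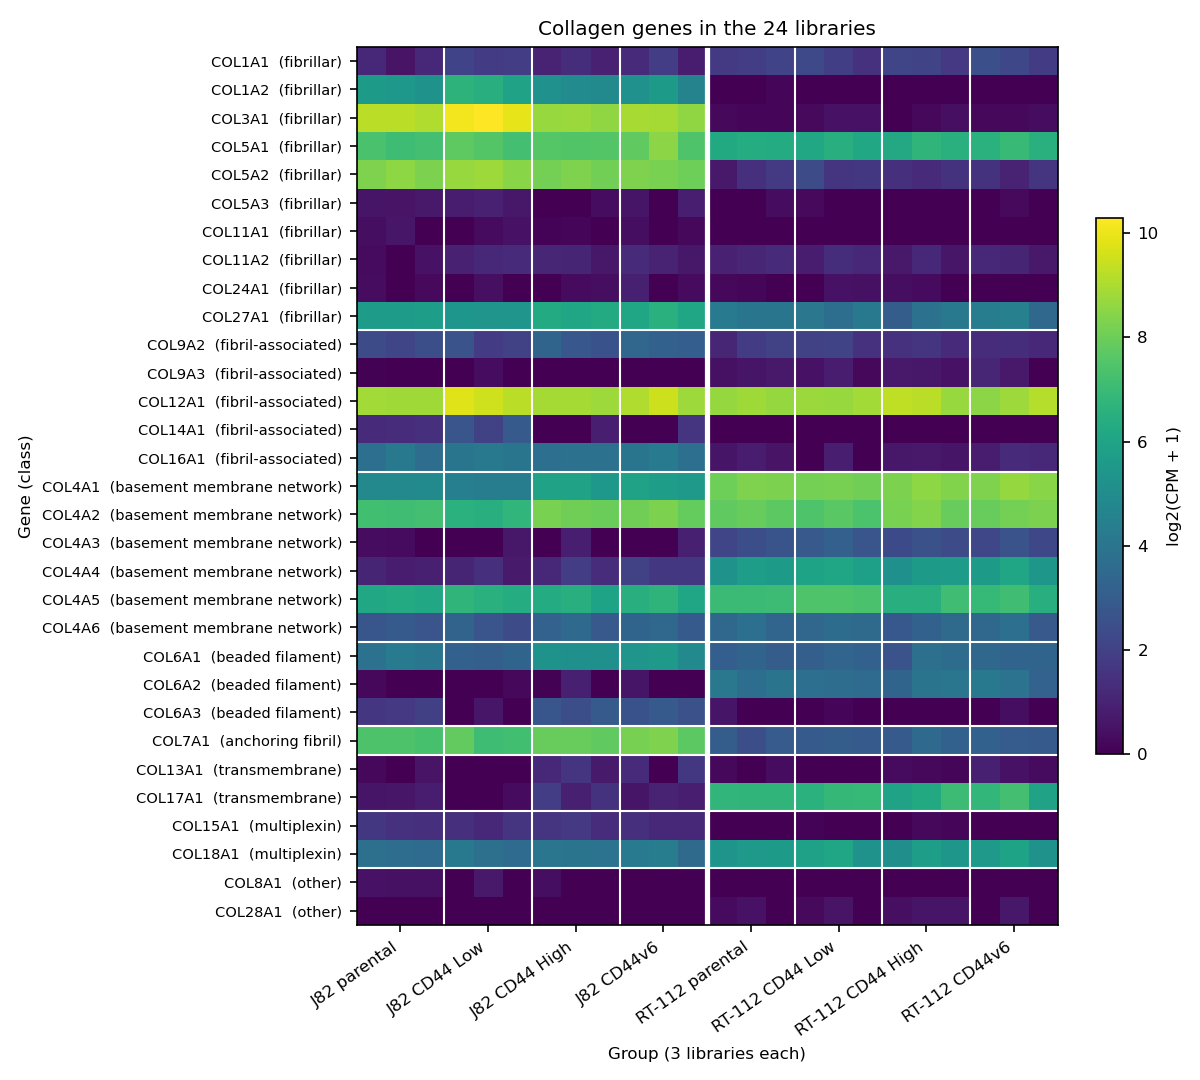
Level of each of the 31 collagen genes (rows, by class) in each of the 24 libraries (columns, 3 per group), as log2(CPM + 1) by colour. COL3A1, COL1A2, COL5A2 and COL7A1 stand out in the J82 columns, COL17A1, COL4A1, COL4A4 and COL6A2 in the RT-112 columns, and COL12A1 is high in both.

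As shares of the summed level per kilobase of all exons, fibrillar collagens made up 66.5% ± 0.940 of the collagen transcripts of J82 parental cells and 7.60% ± 0.215 of those of RT-112 parental cells (SD, n = 3). Type IV made up 7.195% ± 0.352 in J82 and 41.5% ± 1.04 in RT-112, and transmembrane collagens 0.0553% and 12.9%. Within J82 the fibrillar share was 71.5% ± 3.09 in CD44 Low, 56.3% ± 0.709 in CD44 High and 55.7% ± 1.56 in CD44v6. The type IV share was 4.45% ± 0.444, 11.5% ± 0.679 and 10.5% ± 0.292 in the same groups. No library of J82 CD44 Low overlapped CD44 High or CD44v6 in either share. In the 4 RT-112 groups the mean fibrillar share stayed between 7.15% and 8.67% and the mean type IV share between 40.5% and 42.5%. Per kilobase of the longest transcript the type IV shares were larger (7.97% in J82 CD44 Low, 21.3% in CD44 High and 56.4% in RT-112 parental) and kept this order. A share of a whole falls when another class grows, so these values describe make-up and not amount.

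**Figure D2:**
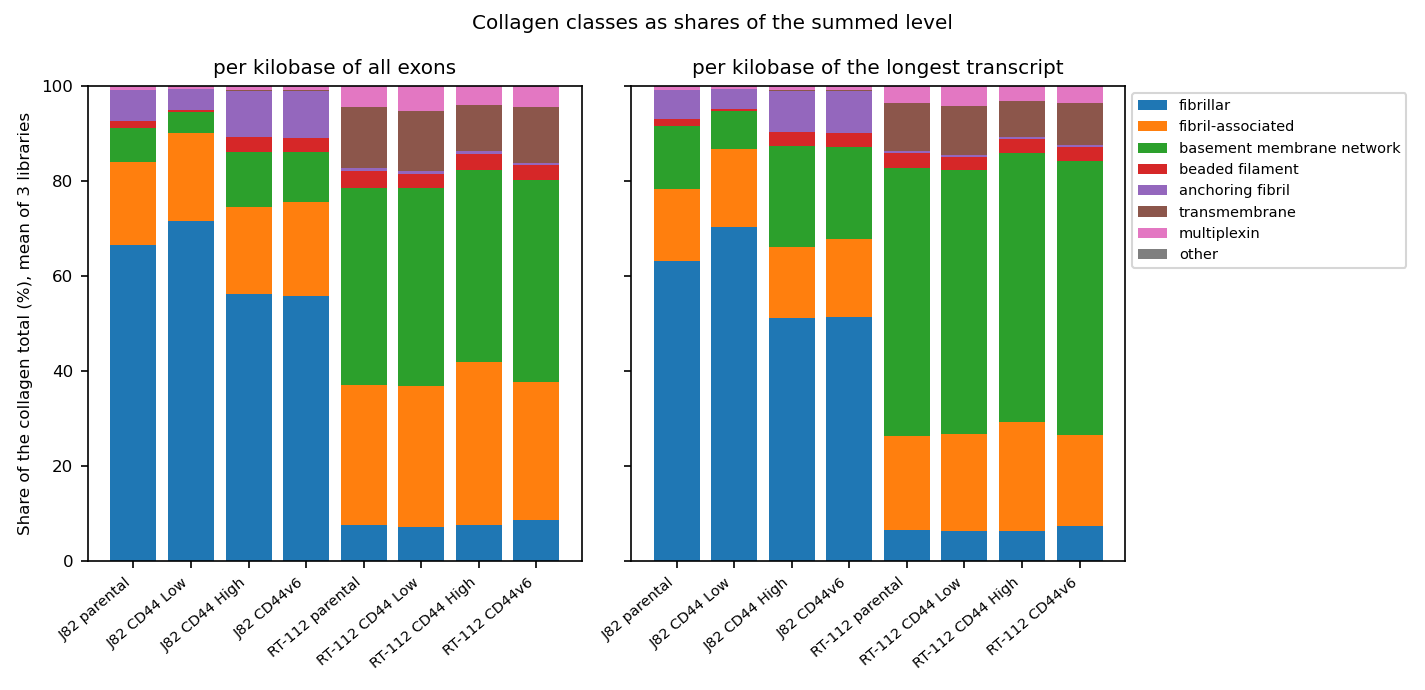
Mean share (%) of each collagen class in the summed level of each group, per kilobase of all exons (left) and of the longest transcript (right), mean of 3 libraries. Fibrillar collagens fill between 51.1% and 71.5% of each J82 bar and between 6.28% and 8.67% of each RT-112 bar, and within J82 the type IV part is smallest in CD44 Low under both lengths.

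Each comparison was tested with edgeR's quasi-likelihood test, and a gene was called at a Benjamini-Hochberg adjusted p under 0.05 over all genes tested in that fit. The fits held 25 of the 31 collagen genes in J82, 21 in RT-112 and 27 over both lines. A gene passed the filter where enough libraries of the fit had counts, at least as many as the smallest group holds. These could lie in any groups, so a gene expressed in 1 group only could pass through that group. In J82 CD44 High against CD44 Low, 12 of 25 collagen genes (48.0%) were called, against 15.7% of all genes: 7 higher (8.83% of all genes) and 5 lower (6.9%). Here and below, a call is edgeR's unless another tool is named. In J82 CD44v6 against CD44 Low, 12 of 25 were called (9.58% of all genes), 9 higher (6.18%) and 3 lower (3.4%), and 7 without CD44 Low replicate 2. Both counts of 12 include COL13A1 among the higher genes. It passed the filter only through the groups where it was high, and its calls are given no weight below. Both counts also include COL6A3 and COL17A1, which were near 0 in CD44 Low and passed the filter through the other J82 groups. In J82 CD44 Low against parental, 7 of 25 were called (5.34% of all genes), 3 higher (2.26%) and 4 lower (3.08%). That count was 3 without parental replicate 3 and 4 without parental replicate 1 or 2 or CD44 Low replicate 1 or 2. In J82 CD44 High against parental, 5 of 25 were called (2.94% of all genes), 4 higher (1.71%) and 1 lower (1.23%), and 3 whichever of the 6 libraries was left out. In J82 CD44v6 against parental, 4 of 25 were called (2.6% of all genes), with 4 higher (1.86%) and 0 lower (0.74%). That count was 2 without parental replicate 1, 8 without CD44v6 replicate 3, and 10 with DESeq2.

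In RT-112 fewer collagen genes were called. CD44 High against CD44 Low called 2 of 21 (9.52%), against 16% of all genes, with 1 higher (9.01%) and 1 lower (7.02%), and 1 without CD44 Low replicate 1, CD44 High replicate 1 or CD44 High replicate 2. CD44v6 against CD44 Low called 5 of 21 (23.8%), also against 16% of all genes, with 3 higher (7.97%) and 2 lower (8.03%). That count was 3 without CD44 Low replicate 2 or 3 or CD44v6 replicate 1 or 2, and 1 without CD44 Low replicate 1 or CD44v6 replicate 3. Against parental cells no collagen gene was called by edgeR or DESeq2 in CD44 Low (3.2% of all genes), CD44 High (0.511%) or CD44v6 (0.614%). At an unadjusted p under 0.05 there were 3, 3 and 2 such genes. CD44v6 against CD44 High called no gene of any kind in either line (0% of all genes) with edgeR, and no collagen gene had an unadjusted p under 0.05 there. DESeq2 called no collagen gene there either. These comparisons within a line share libraries, so their calls are not independent of each other.

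The median log2 fold change over the tested collagen genes was 0.21 in J82 CD44 High against CD44 Low, beside -0.02 over all genes. It was 0.12 in the same comparison of RT-112, beside 0.02. In J82 the called genes of this comparison went in both directions, by class as follows.

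COL4A1 and COL4A2 encode the alpha1 and alpha2 chains, which assemble into the type IV network found in most basement membranes. COL4A1 stood at 28.1, 28.1 and 29.02 CPM in the 3 J82 parental libraries and at 21.1, 19.6 and 19.5 in CD44 Low. It stood at 60.5, 59.6 and 44.5 in CD44 High and at 60.5, 51.7 and 45.5 in CD44v6. Neither CD44 High nor CD44v6 overlapped parental or CD44 Low. COL4A2 stood at 142, 139 and 148 CPM in parental, 94.2, 90.5 and 108 in CD44 Low, 297, 265 and 254 in CD44 High and 268, 306 and 233 in CD44v6. From CD44 Low to CD44 High, COL4A1 rose by 1.46 ± 0.13 on the log2 scale (SE, edgeR adjusted p = 1.24e-05) and COL4A2 by 1.49 ± 0.11 (edgeR adjusted p = 1.78e-06). From parental to CD44 High they rose by 0.95 ± 0.13 and 0.93 ± 0.11, and from parental to CD44v6 by 0.89 ± 0.13 and 0.91 ± 0.11 (edgeR adjusted p between 0.000892 and 0.00601). The CD44v6 call of COL4A1 was lost without parental replicate 1 (edgeR adjusted p = 0.051). From parental to CD44 Low, COL4A2 fell by 0.56 ± 0.11 (edgeR adjusted p = 0.0105, and 0.0515 without parental replicate 3). COL4A1 fell by 0.51 ± 0.13 there (edgeR adjusted p = 0.0466), a call that was lost whichever of the 6 libraries was left out (0.084 to 0.139). CD44v6 and CD44 High did not differ detectably in COL4A2, with a log2 difference of -0.02 ± 0.11 (SE).

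In RT-112 both genes were already high. COL4A1 was at 261, 318 and 307 CPM in parental, 284, 289 and 265 in CD44 Low, 305, 376 and 326 in CD44 High and 318, 402 and 352 in CD44v6. COL4A2 was at 217, 240.3 and 211 CPM in parental, 178, 202 and 166 in CD44 Low, 297, 336 and 236 in CD44 High and 238, 284 and 306 in CD44v6. For COL4A2, CD44 Low lay below the 3 other groups in all libraries. COL4A2 rose by 0.70 ± 0.13 from CD44 Low to CD44 High (SE, edgeR adjusted p = 0.00322) and by 0.60 ± 0.13 from CD44 Low to CD44v6 (edgeR adjusted p = 0.00883). Both calls held whichever library was left out. COL4A1 rose by 0.35 ± 0.10 from CD44 Low to CD44v6 (edgeR adjusted p = 0.0326). That call was lost without CD44 Low replicate 1, 2 or 3 or CD44v6 replicate 2 or 3 (up to 0.129). Its change from CD44 Low to CD44 High was 0.30 ± 0.10 and was not called (edgeR adjusted p = 0.0596), although DESeq2 called it.

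The ratio of COL4A2 to COL4A1 counts lay far apart in the lines. It averaged 5.03 ± 0.0780 in J82 parental (SD, n = 3) and lay between 4.43 and 5.92 over the 12 J82 libraries. In RT-112 parental it averaged 0.757 ± 0.0722, and it lay between 0.627 and 0.972 over the 12 RT-112 libraries. Within RT-112 the CD44 Low libraries, at 0.627, 0.696 and 0.627, lay below every CD44 High and CD44v6 library and overlapped parental. The ratio is of counts and not per length, so only its change between libraries can be read. The antisense genes COL4A2-AS1 and COL4A2-AS2 overlap COL4A2 in GENCODE 29. Whether counting used strand is not given in the sources used here, so their reads cannot be told apart from those of COL4A2.

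**Figure D3:**
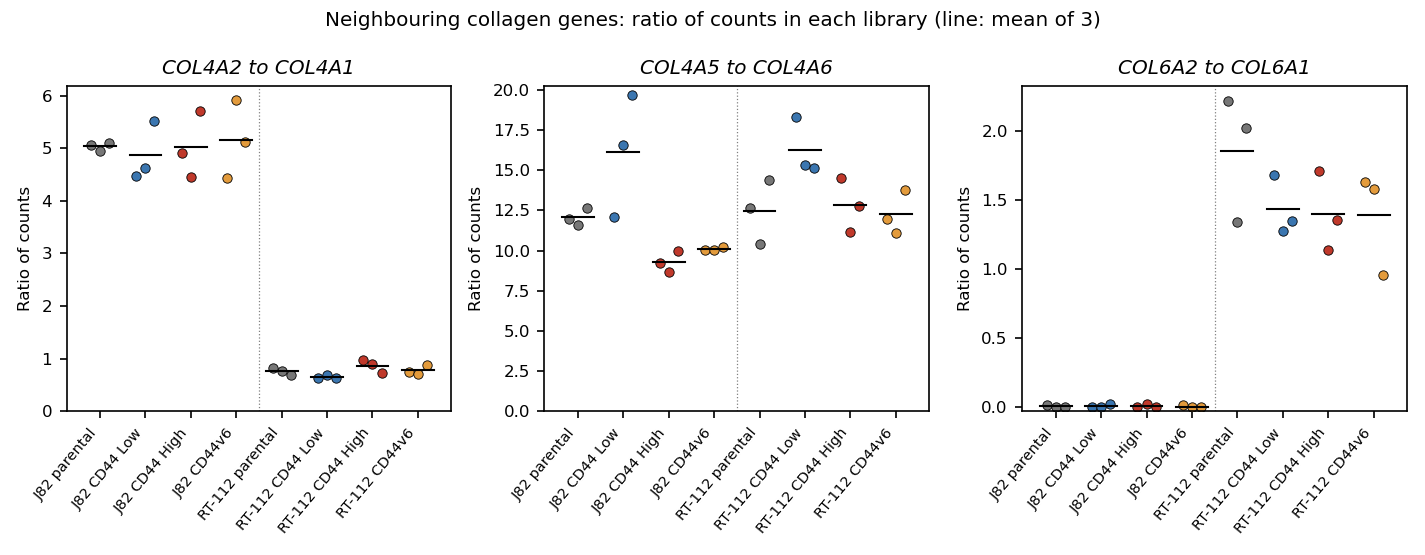
Ratio of counts of neighbouring collagen genes in each library (points) with the mean of 3 libraries (line), by group. The COL4A2 to COL4A1 ratio lies near 5.03 in J82 and near 0.757 in RT-112, the COL6A2 to COL6A1 ratio is near 0 in J82 and above 0.95 in every RT-112 library, and the COL4A5 to COL4A6 ratio covers a like range in both lines.

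The other type IV chains, alpha3 to alpha6, occur in more specialised basement membranes. COL4A5 was at 69.6, 76.99 and 71.03 CPM in J82 parental and at 106, 93.1 and 81.2 in CD44 Low. It was at 79.2, 90.2 and 62.5 in J82 CD44 High and at 89.2, 103 and 66.6 in CD44v6, with no call in any J82 comparison. In RT-112 it was at 128, 131 and 132 CPM in parental, 175, 178 and 163 in CD44 Low, 88.9, 90.4 and 140.4 in CD44 High and 118, 139 and 87.5 in CD44v6. CD44 Low was thus the highest RT-112 group in all libraries, the opposite order to COL4A2. COL4A5 fell by 0.65 ± 0.18 from RT-112 CD44 Low to CD44 High (SE, edgeR adjusted p = 0.0244). The call was lost without CD44 Low replicate 1 or 2 or CD44 High replicate 1 or 2 (up to 0.0993). It fell by 0.59 ± 0.18 from CD44 Low to CD44v6 (edgeR adjusted p = 0.039), a call lost without any CD44 Low library or without CD44v6 replicate 1 or 3 (up to 0.154). COL4A6, its head-to-head neighbour, stayed between 6.11 and 12.6 CPM in the 12 RT-112 libraries and was called in none of the comparisons within a line. The COL4A5 to COL4A6 count ratio averaged 16.1 ± 3.83 in J82 CD44 Low and 16.3 ± 1.78 in RT-112 CD44 Low (SD, n = 3), and between 9.30 and 12.8 in the other groups.

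COL4A4 was at 37.1, 51.5 and 48.6 CPM in RT-112 parental, 62.3, 68.1 and 55.2 in CD44 Low, 34.6, 47.9 and 49.7 in CD44 High and 47.7, 65.99 and 42.6 in CD44v6. The J82 libraries held between 0.687 and 3.01 CPM. Its neighbour COL4A3 averaged 4.46 ± 0.988 CPM in RT-112 parental and 6.62 ± 1.15 in CD44 Low (SD, n = 3). COL4A3 fell by 0.67 ± 0.21 from CD44 Low to CD44v6 (SE, edgeR adjusted p = 0.0477). That call was lost without CD44 Low replicate 1 or 2 or CD44v6 replicate 1 or 3 (up to 0.163). COL4A4 was not called within RT-112. In J82, COL4A3 had 0 counts in 7 libraries and at most 17 in the others. COL4A3 overlaps AC097662.1 on the opposite strand in GENCODE 29.

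Type VI filaments are assembled from an alpha1, an alpha2 and an alpha3 chain, encoded by COL6A1, COL6A2 and COL6A3, and in these lines the 3 genes did not go together. COL6A1 was at 13.8, 17.4 and 15.7 CPM in J82 parental and 8.14, 7.67 and 8.99 in CD44 Low. It was at 38.6, 35.4 and 34.5 in CD44 High and 40.5, 44.998 and 29.7 in CD44v6. These groups fall into 3 levels with no overlap between them, with CD44 High and CD44v6 sharing the top one. COL6A1 rose by 2.14 ± 0.15 on the log2 scale from CD44 Low to CD44 High (SE, edgeR adjusted p = 1.5e-06) and by 2.22 ± 0.15 from CD44 Low to CD44v6 (edgeR adjusted p = 1.98e-06). From parental cells it rose by 1.21 ± 0.15 to CD44 High and by 1.30 ± 0.15 to CD44v6, and it fell by 0.92 ± 0.15 to CD44 Low (edgeR adjusted p between 0.00118 and 0.00408). All 5 calls held whichever library was left out. In RT-112 it was at 7.48, 8.9998 and 7.25 CPM in parental, 7.59, 9.37 and 8.19 in CD44 Low, 5.29, 12.9 and 11.3 in CD44 High and 10.3, 8.85 and 8.93 in CD44v6, and it was called in no comparison.

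COL6A3 moved with COL6A1 in J82. It was at 2.09, 2.25 and 2.83 CPM in parental, 0, 0.540 and 0 in CD44 Low, 5.68, 4.51 and 6.58 in CD44 High and 5.09, 6.55 and 4.94 in CD44v6. In counts, the CD44 Low libraries held 0, 10 and 0. COL6A3 rose by 4.88 ± 0.66 from CD44 Low to CD44 High (SE, edgeR adjusted p = 0.000296) and fell by 3.65 ± 0.68 from parental to CD44 Low (edgeR adjusted p = 0.00794). COL6A3 passed the filter through the other J82 groups, where it was higher, and the sizes rest on few counts in CD44 Low. DESeq2, but not edgeR, also called COL6A3 in J82 CD44 High and CD44v6 against parental. In RT-112 its highest library held 0.510 CPM. COL6A2 had the opposite distribution over the lines: at most 18 counts in any J82 library, and 16.6, 12.03 and 14.6 CPM in RT-112 parental. The other RT-112 groups held 12.7, 11.9 and 11.01 CPM in CD44 Low, 9.05, 14.6 and 15.3 in CD44 High and 16.7, 13.99 and 8.53 in CD44v6, with no call among them. In J82 parental the 3 libraries together held 4 counts of COL6A2 beside 928 of COL6A1, its neighbour on chromosome 21. In RT-112 parental they held 869 beside 484.

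**Figure D4:**
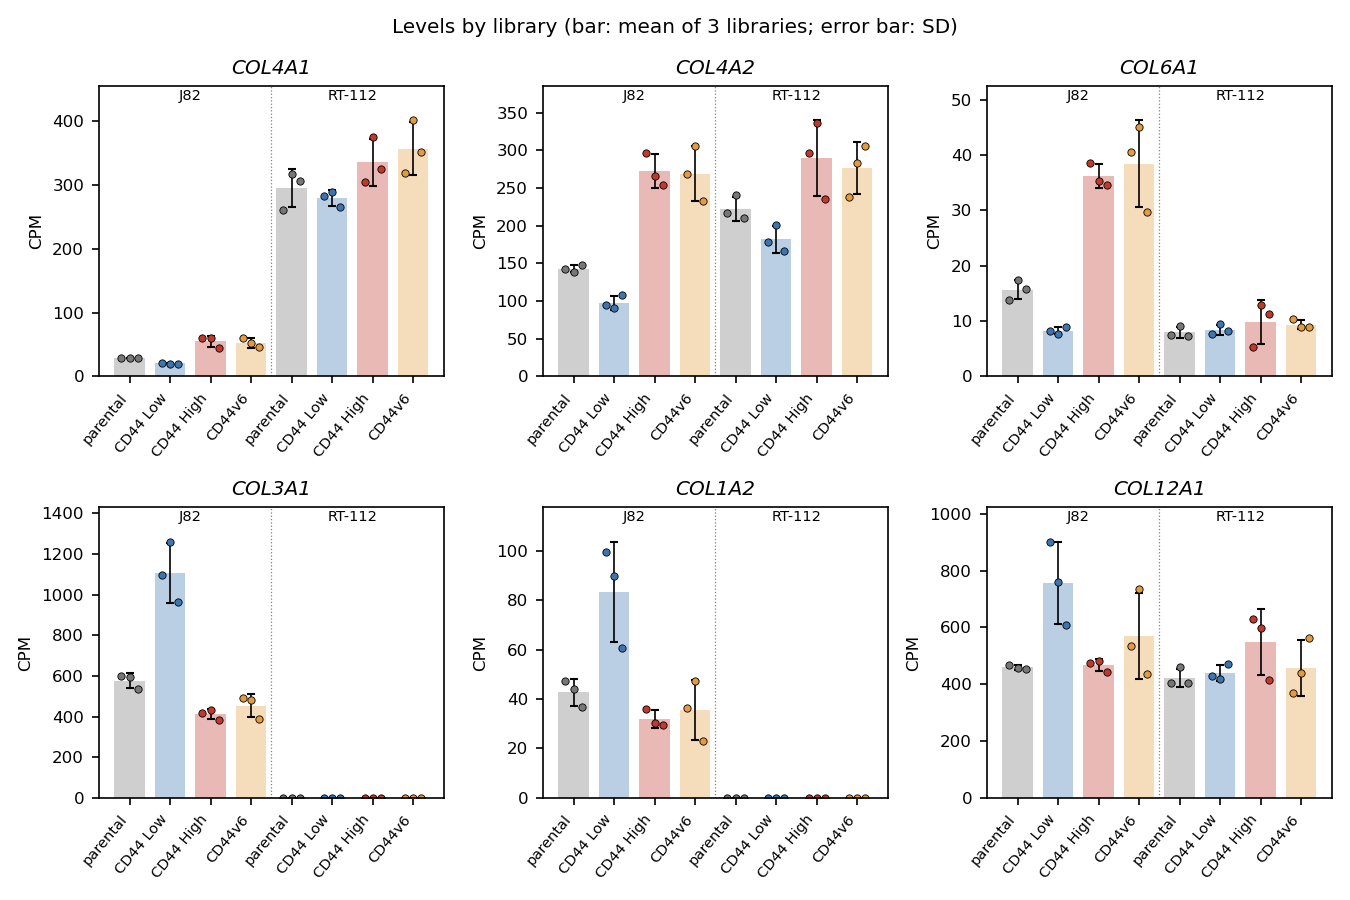
Level in CPM of 6 collagen genes in each library (points, 3 per group) with the group mean (bar) and SD (error bar), from 0 on a linear axis. In J82, COL4A1, COL4A2 and COL6A1 are lowest in CD44 Low and highest in CD44 High and CD44v6, and COL3A1, COL1A2 and COL12A1 are highest in CD44 Low. In RT-112, COL3A1 and COL1A2 are at or near 0.

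Of the fibrillar genes, COL3A1, COL1A2 and COL5A2 were called lower in J82 CD44 High than in CD44 Low, and COL27A1 higher. COL3A1, the chain of type III collagen, was at 600.2, 596 and 535 CPM in J82 parental and at 1097, 1260.3 and 964 in CD44 Low. It was at 419, 431 and 382 in CD44 High and 492, 480.5 and 389 in CD44v6. All CD44 Low libraries lay above all others, and all CD44 High and CD44v6 libraries lay below parental. COL3A1 fell by 1.42 ± 0.12 from CD44 Low to CD44 High (SE, edgeR adjusted p = 4.05e-06) and by 1.28 ± 0.12 from CD44 Low to CD44v6 (edgeR adjusted p = 1.33e-05), and it rose by 0.94 ± 0.11 from parental to CD44 Low (edgeR adjusted p = 0.000494). These 3 calls held whichever library was left out. From parental to CD44 High it fell by 0.49 ± 0.11 (edgeR adjusted p = 0.0372), which was lost whichever of the 6 libraries was left out (0.0667 to 0.161). In RT-112 the highest COL3A1 library held 0.434 CPM.

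COL1A2, the alpha2 chain of type I collagen, was at 47.3, 44.1 and 36.8 CPM in J82 parental, 99.8, 89.9 and 60.9 in CD44 Low, 35.9, 30.4 and 29.3 in CD44 High and 36.4, 47.4 and 23.1 in CD44v6. CD44 Low again lay above every other group. COL1A2 fell by 1.38 ± 0.23 from CD44 Low to CD44 High (SE, edgeR adjusted p = 0.00134) and by 1.23 ± 0.23 to CD44v6 (edgeR adjusted p = 0.00413), and it rose by 0.96 ± 0.23 from parental to CD44 Low (edgeR adjusted p = 0.0278). The last call was lost without any parental library or without CD44 Low replicate 1 or 2 (up to 0.124). In RT-112 COL1A2 had 2 counts in the 3 parental libraries and 0 in the other 9. COL1A1, the alpha1 chain of type I, was low in both lines, with group means from 0.963 to 2.77 CPM in J82 and from 2.73 to 3.64 CPM in RT-112. DESeq2, but not edgeR, called it between J82 CD44 Low and parental, where the means were 2.77 and 0.963 CPM. The most common type I molecule holds 2 alpha1 chains and 1 alpha2 chain.

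Type V chains help to start fibrils. COL5A2, the neighbour of COL3A1 on chromosome 2, was at 313, 370.3 and 308 CPM in J82 parental, 415, 443 and 353 in CD44 Low, 286, 313 and 274 in CD44 High and 316, 302 and 260.04 in CD44v6. It fell by 0.46 ± 0.11 from CD44 Low to CD44 High (SE, edgeR adjusted p = 0.0138), lost without CD44 Low replicate 1 or 2 or CD44 High replicate 1 or 3 (up to 0.0565). It fell by 0.46 ± 0.11 to CD44v6 (edgeR adjusted p = 0.0208), lost without CD44 Low replicate 1 or 2 or CD44v6 replicate 3 (up to 0.0864). The COL5A2 to COL3A1 count ratio was 0.365 ± 0.0133 in CD44 Low and 0.709 ± 0.0228 in CD44 High (SD, n = 3), so COL3A1 changed more than its neighbour. In RT-112 COL5A2 stayed between 0.624 and 4.29 CPM.

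COL5A1 was at 159.8, 136 and 149 CPM in J82 parental, 217, 186 and 149 in CD44 Low, 188, 181 and 188 in CD44 High and 218, 366 and 175 in CD44v6, where replicate 2 stood above the others. edgeR called it in no J82 comparison, and DESeq2 called it in CD44v6 against parental. In RT-112 it was at 75.3, 81.8 and 79.4 CPM in parental, 68.8, 87.1 and 69.99 in CD44 Low, 73.5, 107 and 91.3 in CD44 High and 94.5, 123 and 92.8 in CD44v6. It rose by 0.45 ± 0.14 from RT-112 CD44 Low to CD44v6 (SE, edgeR adjusted p = 0.0423), lost without CD44 Low replicate 1 or 3 or CD44v6 replicate 2 or 3 (up to 0.164).

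COL27A1, a fibrillar collagen known from cartilage, was lowest in J82 CD44 Low, unlike COL3A1, COL1A2 and COL5A2. It was at 51.3, 51.2 and 52.9 CPM in parental, 41.1, 39.9 and 40.4 in CD44 Low, 77.9, 66.4 and 77.2 in CD44 High and 65.9, 93.2 and 65.2 in CD44v6. No CD44 Low library overlapped another group. COL27A1 rose by 0.87 ± 0.13 from CD44 Low to CD44 High (SE, edgeR adjusted p = 0.000441) and by 0.89 ± 0.13 to CD44v6 (edgeR adjusted p = 0.000566), and both calls held whichever library was left out. From parental it rose by 0.51 ± 0.12 to CD44 High (edgeR adjusted p = 0.0429) and by 0.53 ± 0.12 to CD44v6 (edgeR adjusted p = 0.0448). The first was lost whichever of the 6 libraries was left out (0.0688 to 0.17), and the second without any parental library or without CD44v6 replicate 2 (up to 0.183). In RT-112 it was at 18.1, 15.2 and 14.9 CPM in parental, 15.9998, 12.1 and 16.7 in CD44 Low, 7.17, 13.6 and 16.8 in CD44 High and 19.6, 21.4 and 10.3 in CD44v6, with no call.

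The summed level of the fibroblast and mesenchymal markers did not follow COL3A1, COL1A2 and COL5A2. This sum in J82 was 524.5 to 577 CPM in CD44 Low, 655 to 703 in parental, 886 to 1009.9 in CD44 High and 833 to 952 in CD44v6, with DCN and FAP at 0. VIM and CDH2 made up most of it, so it describes those genes more than the list. VIM averaged 231 CPM in CD44 Low and 606 in CD44 High, and CDH2 280 and 328. PDGFRB (17.6 and 7.61 CPM) and LUM (23.5 and 11.6) were higher in CD44 Low. The urothelial and epithelial sum was 6450.3 to 7860.4 CPM in CD44 Low and 8713 to 10599.9 in CD44 High. KRT7, KRT8 and KRT18 made up most of it. Their means were 1048, 4169 and 1547 CPM in CD44 Low and 2825, 4747 and 1836 in CD44 High. CDH1 and GATA3 of the same list went the other way, with means of 5.71 and 0.616 CPM in CD44 Low and 0.508 and 0.0870 in CD44 High. CD68 made up nearly all of the leukocyte sum, at a mean of 93.2 CPM in CD44 Low and 166 in CD44 High. The part of these markers in the collagen differences was not tested.

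COL12A1 encodes a fibril-associated collagen that links fibrils to their surroundings, and it was high in both lines. It was at 468, 455 and 454 CPM in J82 parental, 899.9, 760.005 and 609 in CD44 Low, 476, 482 and 444 in CD44 High and 535, 734 and 437 in CD44v6. It rose by 0.72 ± 0.17 from parental to CD44 Low (SE, edgeR adjusted p = 0.0253), lost without any parental library or without CD44 Low replicate 1 or 2 (up to 0.119). It fell by 0.69 ± 0.17 from CD44 Low to CD44 High (edgeR adjusted p = 0.0135), lost without CD44 Low replicate 1 or CD44 High replicate 3 (up to 0.0704). In RT-112 it was at 403, 459 and 403 CPM in parental, 430.02, 418 and 470.2 in CD44 Low, 630.2, 598 and 415 in CD44 High and 368, 441 and 562 in CD44v6, with no call. J82 and RT-112 parental cells did not differ detectably in COL12A1, with a log2 difference of 0.12 ± 0.17 (SE, edgeR adjusted p = 0.568).

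COL14A1, also fibril-associated, was found in J82 only, with 5.57, 2.97 and 6.47 CPM in CD44 Low, 1.42, 1.48 and 1.68 in parental, 0, 0 and 0.836 in CD44 High and 0, 0 and 1.97 in CD44v6. Its 12 RT-112 libraries were at 0. From CD44 Low to CD44 High it fell (edgeR adjusted p = 0.0428), a call lost without any CD44 Low library, without CD44 High replicate 1 or 2 (up to 0.129), and with no filter or with DESeq2. A count of 0 stood beside 16 in CD44 High and beside 36 in CD44v6, and 17 such cases of a 0 beside 10 or more counts in the same group occurred over the collagen genes. COL16A1 stayed between 11.9 and 17.7 CPM in J82 and at or below 1.33 CPM in RT-112. COL9A2 averaged 3.60 ± 1.49 CPM in J82 CD44 Low, 6.68 ± 2.07 in CD44 High and 8.39 ± 1.11 in CD44v6 (SD, n = 3). It rose by 1.22 ± 0.29 from CD44 Low to CD44v6 (SE, edgeR adjusted p = 0.0179), lost without CD44 Low replicate 2 or 3 or CD44v6 replicate 1 (up to 0.0717).

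COL7A1, the only chain of the anchoring fibril, was at 169, 173 and 155 CPM in J82 parental, 224, 138 and 145 in CD44 Low, 242, 239.7 and 223 in CD44 High and 293, 319 and 209.9 in CD44v6. It rose by 0.70 ± 0.18 from CD44 Low to CD44v6 (SE, edgeR adjusted p = 0.0253), although CD44 Low replicate 1 lay above CD44v6 replicate 3. That call was lost without CD44 Low replicate 2 or 3 or CD44v6 replicate 1 or 2 (up to 0.105). From CD44 Low to CD44 High its change of 0.48 ± 0.18 was not called (edgeR adjusted p = 0.0852), although DESeq2 called both COL7A1 and COL9A2 there. With the replicate number as a block, which paired these groups, COL7A1 was called there (edgeR adjusted p = 0.0404), as was COL9A2 (0.0525 without the block and 0.0199 with it), which made 14 collagen genes. RT-112 held between 4.4999 and 10.5 CPM of COL7A1, with no call.

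COL17A1, the hemidesmosomal collagen, was high in RT-112 and near 0 in J82. In RT-112 it was at 108, 107 and 105 CPM in parental, 93.9, 116 and 120.1 in CD44 Low, 59.5, 74.9 and 134 in CD44 High and 113, 150.1 and 60.5 in CD44v6. The CD44 High and CD44v6 libraries were spread widely around the same level, with no call. In J82 it was at 0.490, 0.548 and 0.786 CPM in parental, 0, 0 and 0.229 in CD44 Low, 2.67, 0.882 and 1.83 in CD44 High and 0.485, 1.01 and 0.823 in CD44v6. It rose by 4.48 ± 0.87 from J82 CD44 Low to CD44 High (SE, edgeR adjusted p = 0.00371), from 4 counts in the CD44 Low group. From CD44 Low to CD44v6 it rose by 3.26 ± 0.89 (edgeR adjusted p = 0.0368), lost without CD44 Low replicate 1 or 2 or CD44v6 replicate 2 or 3 (up to 0.117).

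COL13A1, another transmembrane collagen, had 0 counts in all J82 CD44 Low libraries and 1.20, 1.91 and 0.679 CPM in CD44 High. Against a floor of 3 counts over the group, it was at least 22.9-fold higher in CD44 High. In CD44v6 it was at 1.31, 0 and 2.14 CPM (27, 0 and 39 counts), at least 21.3-fold higher than in CD44 Low. The parental libraries held 4, 0 and 9 counts, so COL13A1 passed the filter only through the groups where it was high, and its calls in both comparisons are given no weight. They were lost without any CD44 Low library, and without CD44 High replicate 1 or 2 or CD44v6 replicate 1 or 3 in turn. COL18A1, whose C-terminal fragment is endostatin, was at 12.8, 11.8 and 11.2 CPM in J82 parental and at 39.01, 45.5 and 47.4 in RT-112 parental. The other J82 groups ran from 10.8 to 19.6 CPM and the other RT-112 groups from 33.8 to 64.6, with no call within either line. COL18A1 overlaps SLC19A1 on the opposite strand in GENCODE 29. COL15A1, of the same multiplexin class, stayed between 1.24 and 2.25 CPM in J82 and at or below 0.172 CPM in RT-112. The remaining 6 genes (COL5A3, COL8A1, COL11A1, COL11A2, COL24A1 and COL28A1) had group means of at most 1.20 CPM and no edgeR call within a line (DESeq2 called COL11A2 in J82 CD44 Low and CD44v6 against parental), and COL9A3 stayed at or below 1.18 CPM in every library.

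Between the parental lines, 24 of 27 collagen genes (88.9%) were called, against 62% of all genes, with 12 higher in J82 (31%) and 12 lower (31%). COL1A2, COL3A1, COL6A3, COL14A1 and COL15A1 had under 10 counts in every RT-112 library. COL9A3 had under 10 in every J82 library, and COL6A2 in nearly every one. These genes passed the filter only through the line where they were high. The 24 includes them, but their calls are given no weight, and the values below describe their levels. COL3A1 was higher in J82 by 12.03 ± 0.27 on the log2 scale, COL5A2 by 7.71 ± 0.29, COL7A1 by 4.75 ± 0.22 and COL16A1 by 4.57 ± 0.46 (SE, edgeR adjusted p between 6.72e-19 and 1.39e-08). COL1A2 was 1309-fold higher by counts (95% counting interval 362 to 10818), from 2 counts in RT-112. COL15A1 and COL14A1, at 0 in RT-112 parental, were at least 38.4-fold and at least 30.9-fold higher. COL6A2 was lower in J82 by -7.63 ± 0.85, COL17A1 by -7.45 ± 0.45, COL4A4 by -5.63 ± 0.29, COL4A1 by -3.38 ± 0.13 and COL18A1 by -1.88 ± 0.23 (log2, SE, edgeR adjusted p between 3.04e-15 and 3.8e-07). COL4A2, COL4A5 and COL4A6 differed less, by -0.64 ± 0.13, -0.84 ± 0.18 and -0.82 ± 0.27, and all 6 type IV genes were called lower in J82. The COL4A6 call was lost without J82 parental replicate 3 or RT-112 parental replicate 2 (edgeR adjusted p up to 0.0654). COL1A1 was lower in J82 by -1.49 ± 0.42 (edgeR adjusted p = 0.00405), against the direction of COL1A2. COL6A3 was higher in J82 by 3.90 ± 0.98 (edgeR adjusted p = 0.00175, and 0.0612 with DESeq2), and COL9A2 by 0.86 ± 0.33 (edgeR adjusted p = 0.0266). The COL9A2 call was lost without J82 parental replicate 1 or 3 or RT-112 parental replicate 1 (up to 0.162), and that of COL14A1 with DESeq2. COL5A1, COL6A1 and COL27A1 were called higher in J82, and COL4A3, COL9A3 and COL11A2 lower. COL12A1, COL5A3 and COL13A1 were not called.

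An interaction term over all 24 libraries compared the change from CD44 Low to CD44 High in J82 with that in RT-112. It was called for 7 of 27 collagen genes (25.9%), against 10.7% of all genes, with 6 more positive in J82 (6.24%) and 1 more negative (4.42%). COL4A1, COL4A2 and COL6A1 were among the 6, with log2 differences of 1.19 ± 0.17, 0.81 ± 0.18 and 1.90 ± 0.30 (SE, edgeR adjusted p = 0.000118, 0.00474 and 0.000318). COL17A1, COL9A2 and COL27A1 were the others, and COL12A1 was the 1 more negative, by -1.01 ± 0.25 (edgeR adjusted p = 0.0107). The same test for CD44v6 against parental called no collagen gene with edgeR (0.138% of all genes). There, 6 had an unadjusted p under 0.05, and DESeq2 called 5 (COL4A1, COL4A2, COL4A4, COL6A1 and COL9A2). Without J82 CD44v6 replicate 3 edgeR called 3.

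**Figure D5:**
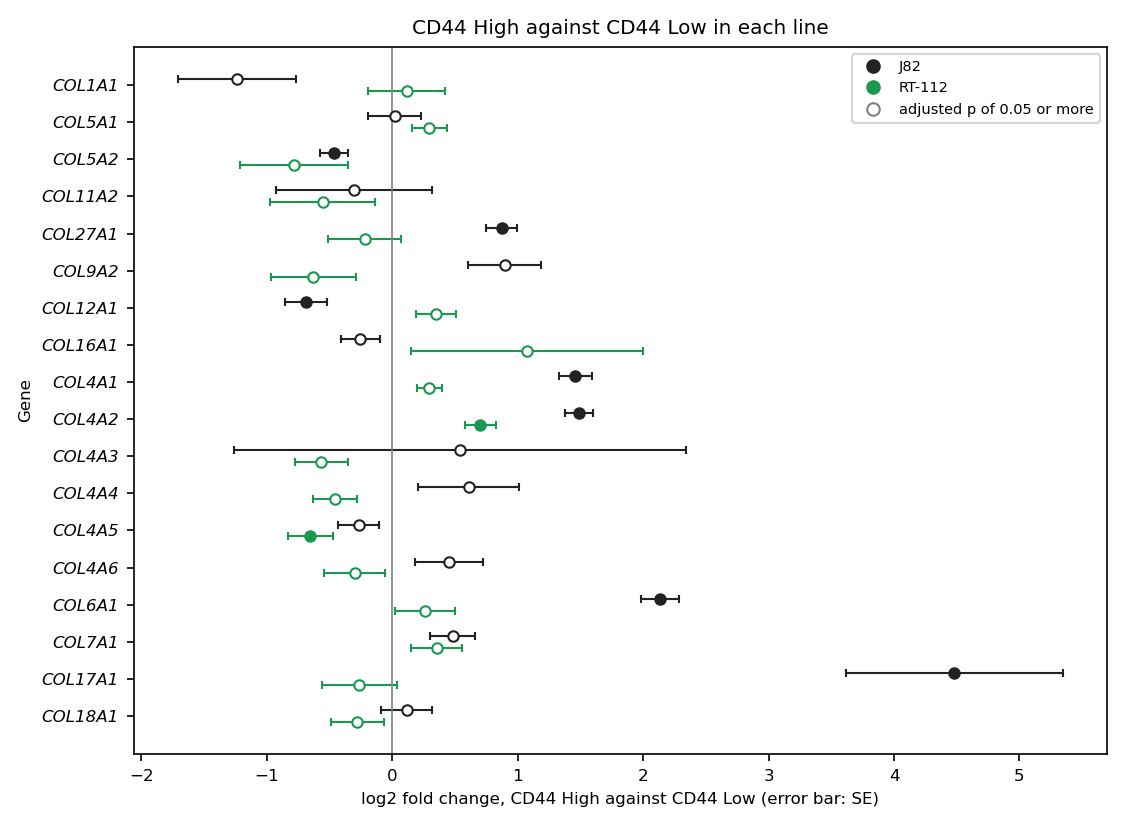
Log2 fold change from CD44 Low to CD44 High (points) with its SE (bars) for the 18 collagen genes tested in both lines, J82 in black and RT-112 in green, with filled points for calls at an adjusted p under 0.05. COL4A2 is filled and to the right of 0 in both lines, at 1.49 in J82 and 0.70 in RT-112, and COL6A1 lies at 2.14 in J82 and 0.26 in RT-112.

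The genes that make, export, process, crosslink or bind collagen were counted from a list of 69, all of which were in the table. In J82 CD44 High against CD44 Low, 18 of 57 tested rose (8.83% of all genes) and 8 fell (6.9%), and in RT-112 10 of 47 rose (9.01%) and 4 fell (7.02%). With 1 library left out, the 26 called in J82 ran from 18 to 28 and the 14 called in RT-112 from 9 to 18. The counts by role below stand against the same shares of all genes. The median log2 fold change over the tested genes was 0.31 in J82 and 0.19 in RT-112, beside -0.02 and 0.02 over all genes. By role in J82, the hydroxylases and glycosyltransferases that modify the chains had 4 of 13 higher and 1 lower, chaperones and export 2 of 7 higher and 1 lower, and propeptide processing 1 of 6 higher and 2 lower. Receptors and uptake had 4 of 7 higher and 1 lower, basement membrane partners 5 of 13 higher and 2 lower, fibril partners 2 of 6 higher and 1 lower, and of 5 lysyl oxidase crosslinkers none was called. In RT-112 the calls were 3 of 12 modifying enzymes higher, 2 of 6 chaperone and export genes lower, 4 of 13 basement membrane partners higher and 1 lower, and 3 of 4 fibril partners higher and 1 lower. None of the 3 processing, 2 crosslinking and 7 receptor genes tested there was called.

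Some genes of the list were called in this comparison in both lines, in the same or in opposite directions. TNC, the matrix protein tenascin-C, rose in both, with log2 changes of 2.37 ± 0.42 (SE) for J82 and 2.45 ± 0.42 for RT-112. LUM, the fibril-binding proteoglycan lumican, fell by 1.01 ± 0.14 and 0.69 ± 0.18. SERPINH1, the collagen chaperone HSP47, rose by 0.31 ± 0.07 in J82 and fell by 0.50 ± 0.13 in RT-112, and SEC23A, of the coat that exports procollagen, rose by 0.34 ± 0.09 and fell by 0.46 ± 0.10. LAMA1, the laminin alpha1 chain, rose by 1.02 ± 0.22 and fell by 0.83 ± 0.23. AGRN, agrin of the basement membrane, fell by 0.47 ± 0.14 and rose by 0.74 ± 0.14 (edgeR adjusted p at most 0.0383 for each of these values). Leaving out called genes whose mean log2 CPM was under 3, the largest rises in J82 were ITGA2, a subunit of a collagen receptor, at 3.03 ± 0.16 and P4HA2, a prolyl hydroxylase subunit, at 2.20 ± 0.20, and LAMB2, a laminin beta chain, fell by 0.61 ± 0.09. In RT-112 the largest rises were THBS1, thrombospondin 1, at 1.46 ± 0.24 and FN1, fibronectin, at 1.35 ± 0.23.

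Against J82 parental, 3 of 57 list genes rose and 6 fell in CD44 Low (2.26% and 3.08% of all genes), 5 rose and 1 fell in CD44 High (1.71% and 1.23%), and 7 rose and 0 fell in CD44v6 (1.86% and 0.74%). The number called moved when 1 library was left out, from 5 to 11 in CD44 Low, 3 to 6 in CD44 High and 2 to 11 in CD44v6. CD44v6 against CD44 Low gave 14 higher and 3 lower of 57 in J82 (6.18% and 3.4% of all genes) and 12 higher and 3 lower of 47 in RT-112 (7.97% and 8.03%). Leaving out 1 library gave 13 to 17 called in J82 and 9 to 13 in RT-112. Against RT-112 parental there were 1, 2 and 1 called genes of 47 in CD44 Low, CD44 High and CD44v6 (3.2%, 0.511% and 0.614% of all genes). Leaving out 1 library kept the first at 1 and moved the others from 0 to 5 and from 0 to 1. Of the 5 other alternative runs, 3, 1 and 0 gave the same count in turn. CD44v6 against CD44 High gave none in either line (8 and 3 at an unadjusted p under 0.05, edgeR). Between the parental lines 48 of 60 were called (62% of all genes), 30 higher in J82 (31%) and 18 lower (31%), and the interaction of CD44 High against CD44 Low called 16 of 60 (10.7%). These 2 counts ran from 45 to 48 and from 13 to 18 with 1 library left out.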

How the data were processed

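The authors deposited 1 table of counts per gene symbol for 24 libraries. The submitters' processing notes name HISAT2, StringTie and GRCh37, with no role or version. How reads were assigned and whether strand was used is not given in the sources used here, so a 0 can be a failed estimate. No column was left unmatched. Replicates of a group differed by more than counting noise (chi-square per degree of freedom 6.42 to 63.7), so all were kept.

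From the counts, edgeR 4.0.16 (R 4.3.3; TMM, filterByExpr, quasi-likelihood test, group as the only term) was fitted over the 12 libraries of a line, and over all 24 for comparisons between lines. It was checked on simulated data. Tests were two-sided, and p-values were adjusted by Benjamini-Hochberg over all genes of a fit (15951 in J82, 15645 in RT-112, 17438 over both). They measure the spread between the replicates deposited. Alternatives were median-of-ratios size factors, no filter, DESeq2 1.42.0, a replicate block, only the groups compared, and each library left out.

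Values are given by library for genes that reached 20 CPM in a group, or that were called in CD44 High against CD44 Low and had a mean log2 CPM of 1 or more. Groups where such a gene was low or had no call are in some cases given by range. From a list of 69 genes that make, process or bind collagen, named were those called in that comparison in both lines, and per line and direction the 2 with the greatest change among called genes whose mean log2 CPM was 3 or more; 1 gene that this rule names is not reported here. Others are given mostly by range. The members and gene lists were chosen with earlier results of these data known. COL6A1, COL3A1, COL1A2 and COL5A2 had no promoter entry. Coordinates of the printed sequences are GRCh38.p14, and gene lengths are from GENCODE 29. The labels do not say whether replicate numbers pair the libraries. Same-numbered libraries of J82 CD44 High and CD44 Low deviated together over genes whose mean log2 CPM was 3 or more (r = 0.156, 0.319 and 0.320). In no other comparison within a line did every pair exceed 0.1 over those genes. Over all tested genes r was 0.0380, 0.113 and 0.230 in J82 CD44 High and CD44 Low.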

Additional observations from a re-analysis of the deposited data

Results flagged for a closer look

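For 7 collagen genes the change from CD44 Low to CD44 High differed between J82 and RT-112 by an interaction test over all 24 libraries (log2 difference, J82 minus RT-112, with SE and edgeR adjusted p). COL6A1 differed by 1.90 ± 0.30 (edgeR adjusted p = 0.000318), COL4A1 by 1.19 ± 0.17 (0.000118) and COL4A2 by 0.81 ± 0.18 (0.00474). COL12A1 differed by -1.01 ± 0.25 (0.0107). COL17A1 differed by 4.80 ± 0.96 (0.00246), from 4 counts in J82 CD44 Low. These 5 calls held whichever of the 12 libraries was left out. COL9A2 differed by 1.56 ± 0.46 (edgeR adjusted p = 0.0349, up to 0.105), a call lost without J82 CD44 Low replicate 2 or 3, J82 CD44 High replicate 1, RT-112 CD44 Low replicate 1 or 2, or RT-112 CD44 High replicate 1 or 3. COL27A1 differed by 1.11 ± 0.33 (edgeR adjusted p = 0.0352, up to 0.0904), a call lost without J82 CD44 Low replicate 1 or 2, J82 CD44 High replicate 1 or 3, RT-112 CD44 Low replicate 1 or 3, or RT-112 CD44 High replicate 1, and also with the replicate block (edgeR adjusted p = 0.0639).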

How the results depend on the processing

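No collagen gene that was called changed direction under any alternative run. Fitting only the groups compared changed the number of collagen genes called to 9 in J82 CD44 High against parental, 7 in J82 CD44v6 against CD44 Low, 2 in RT-112 CD44 Low against parental, 1 in CD44 High against CD44 Low of RT-112 and 1 in the interaction of CD44v6 against parental. DESeq2 called 5 in that interaction, and without a filter 2 were called in RT-112 CD44v6 against CD44 Low. In J82 CD44v6 against parental DESeq2 called 10, adding COL4A4, COL5A1, COL6A3, COL7A1, COL9A2 and COL11A2. DESeq2 also called 10 in J82 CD44 Low against parental, adding COL1A1, COL11A2 and COL17A1 to the 7 that edgeR called. The cause was not tested.

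With 1 library left out, which lowers the number of samples, the J82 counts ran from 3 to 7 in CD44 Low against parental, 3 to 3 in CD44 High against parental, 2 to 8 in CD44v6 against parental, 9 to 12 in CD44 High against CD44 Low and 7 to 11 in CD44v6 against CD44 Low. In RT-112 they ran from 0 to 1 in CD44 Low against parental, 1 to 3 in CD44 High against CD44 Low and 1 to 3 in CD44v6 against CD44 Low. They ran from 22 to 25 between the parental lines, 5 to 7 in the interaction of CD44 High against CD44 Low and 0 to 3 in that of CD44v6 against parental. In the other comparisons they stayed at 0.

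With the replicate block, J82 CD44 High against CD44 Low called 14 collagen genes (12 without it). The other J82 counts against parental were 7 (CD44 Low), 4 (CD44 High) and 6 (CD44v6), with 12 in CD44v6 against CD44 Low and 0 in CD44v6 against CD44 High. In RT-112 they were 3 in CD44 High and 4 in CD44v6 against CD44 Low and 0 elsewhere. Between the parental lines there were 24, and in the interactions 6 (COL27A1 was lost) and 0. In J82 CD44v6 against CD44 High every pair of same-numbered libraries also deviated together over all tested genes (r = 0.113, 0.109 and 0.252), but not over genes whose mean log2 CPM was 3 or more (r = 0.294, 0.0191 and 0.224). In the remaining comparisons within a line, not every pair exceeded 0.1 under either gene set. Over genes whose mean log2 CPM was 3 or more, single pairs still deviated. Replicate 3 had r = 0.638 in J82 CD44v6 against CD44 Low and -0.648 in RT-112 CD44v6 against CD44 High. In J82 CD44 Low against parental r was 0.209, 0.181 and 0.0955 over those genes. Whether replicate numbers pair libraries there cannot be decided from these values.

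Genes near 1 CPM rest on few counts per library, and a 0 beside 10 or more counts in the same group occurred 17 times, so sizes for COL6A3, COL13A1, COL14A1 and COL17A1 in J82 are imprecise.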
